A study of Mus musculus with 48 samples.

Results

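Growth plate cartilage genes were followed in RNA-seq libraries of the tibial metaphysis, the flared bone next to the growth plate. A list of 37 gene symbols was matched to the 32544 rows of the deposited count table. It gave 36 genes, and Cnmd had no row under that symbol. Its older symbol Lect1 has a row, and Lect1 is described beside the list without being counted in it. The genes fall into fibril collagens, other matrix proteins, secreted or membrane proteins of chondrocytes, prehypertrophic and hypertrophic genes, FGF and hedgehog signalling genes, transcription regulators and sulfate supply. The collagens, the matrix proteins other than Prg4, and the secreted and membrane proteins form the set of 20 resting and proliferative genes below. The set of 5 hypertrophic genes is Col10a1, Ihh, Pth1r, Runx3 and Scin.

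The study used male mice aged 19 weeks of 8 inbred strains: the wild-derived CAST/EiJ, PWK/PhJ and WSB/EiJ, and the laboratory strains A/J, 129S1/SvImJ, NZO/HlLtJ, C57BL/6J and NOD/ShiLtJ. None is labelled as carrying a transgene or a drug treatment. Each mouse wore a cast on its left hindlimb during 3 weeks, with the mouse's own right limb as the uncast control, which gave 48 libraries in 16 groups of 3. The cast limb was the left one in every mouse, so side and cast cannot be told apart. Control libraries of A/J mice 2 and 5 were nearly empty, with 2335 and 50 counts, and were left out. The other 46 libraries held 5253408 to 14744056 counts. Both limbs were usable in 22 mice, 3 per strain but 1 in A/J. The mice of a strain are separate animals, and the 1 A/J pair is assumed to vary as the pairs of the other strains do. The NZO/HlLtJ mouse 4 control library stood apart, with a summed level of 526 CPM (counts per 1000000 counts of a library) over 8 erythroid markers against a control median of 46428 CPM.

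The growth plate is a cartilage plate at the end of a long bone in which resting chondrocytes feed columns of proliferating cells, which then enlarge into hypertrophic chondrocytes and give way to bone on the metaphyseal side. Resting and proliferating cells lay down a matrix of type II, IX and XI collagen with aggrecan, link protein and matrilins, under Sox9 and its partners Sox5 and Sox6. Prehypertrophic cells carry the PTH receptor and secrete Indian hedgehog, and hypertrophic cells switch to type X collagen. In mice the plate persists into adult life, with slowing turnover.

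Promoters of the 2 type XI collagen genes are shown because both were called higher in the immobilized limb in the mean of the strains. Those of Col10a1 and Hapln1 are shown because these genes had the widest swings between mice. Each run is the 250 bases before the RefSeq transcription start (GRCm38.p6), read 5′ to 3′ on the gene's strand. Capitals mark a match to a searched motif, TATAAA in Col11a2 and Col10a1 and the reverse complement of ACCACA in Hapln1. The windows are chr3:114030290-114030539 for Col11a1, chr17:34038888-34039137 for Col11a2, chr10:34389731-34389980 for Col10a1 and chr13:89540386-89540635 for Hapln1, all on the plus strand.
Col11a1: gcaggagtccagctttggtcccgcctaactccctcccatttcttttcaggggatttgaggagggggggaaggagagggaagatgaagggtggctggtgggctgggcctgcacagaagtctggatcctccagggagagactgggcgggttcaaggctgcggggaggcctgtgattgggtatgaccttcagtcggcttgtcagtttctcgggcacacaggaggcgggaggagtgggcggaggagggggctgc
Col11a2: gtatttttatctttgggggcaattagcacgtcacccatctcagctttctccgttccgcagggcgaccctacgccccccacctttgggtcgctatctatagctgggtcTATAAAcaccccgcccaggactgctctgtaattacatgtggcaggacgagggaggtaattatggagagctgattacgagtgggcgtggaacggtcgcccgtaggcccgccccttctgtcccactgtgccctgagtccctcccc
Col10a1: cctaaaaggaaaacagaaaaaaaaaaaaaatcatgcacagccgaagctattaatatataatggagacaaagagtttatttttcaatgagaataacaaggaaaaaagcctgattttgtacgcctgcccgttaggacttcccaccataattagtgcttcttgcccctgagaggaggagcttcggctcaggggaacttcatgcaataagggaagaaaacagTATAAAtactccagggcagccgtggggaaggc
Hapln1: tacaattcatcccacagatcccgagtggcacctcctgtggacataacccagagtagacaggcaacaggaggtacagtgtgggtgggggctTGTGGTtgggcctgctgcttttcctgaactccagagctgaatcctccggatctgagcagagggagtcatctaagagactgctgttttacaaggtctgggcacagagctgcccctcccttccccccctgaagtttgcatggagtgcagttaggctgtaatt

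RefSeq promoter windows were matched for 27 of the 36 genes, in 40 windows, and 4 motifs were searched on both strands. The SOX motif AACAAT was present in Epyc, Papss2, Scin and Sox6, and in 9.42% of all 32851 windows. The RUNX motif ACCACA was present in Hapln1, Matn1, Papss2, Runx3, Sox6 and Ucma, and in 14% of all windows. TATAAA was present in Chad, Col10a1, Col11a2, Sox6 and Wwp2, and in 12.4% of all windows. In Chad and Col10a1 it began 28 and 32 bases before the start, and in Col11a2 143 bases before it. The GLI motif ACCACCC, in 3.92% of all windows, was not among the letters of these 40 windows. None of the 4 motifs occurred in the printed Col11a1 window.

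Levels of the cartilage genes differed widely within the tissue. Per kilobase of exon, the median control level was highest for Col11a2, at 69.5 CPM per kb. Pth1r followed at 28.0, Col11a1 at 26.0, Comp at 18.8 and Wwp2 at 13.7 CPM per kb. Col2a1, which encodes the main collagen of cartilage, stood at 10.2 CPM per kb, and aggrecan (Acan) at 1.14 CPM per kb. The hypertrophic collagen Col10a1 had a median of 0.496 CPM per kb and Col9a1 one of 0.152 CPM per kb. Matn1, a matrilin of proliferating and mature chondrocytes, was lowest at 0.0231 CPM per kb, and 11 of 22 control libraries held no Matn1 count. Matn3 was at 0 in 4, Col9a1 in 3 and Col10a1 in 1 of the 22 control libraries. These 4 chondrocyte markers were thus low, and at 0 in part of the control libraries. Other chondrocyte markers, Col2a1, Col9a2, Col9a3, Acan and Hapln1, had counts in all 22. The type XI collagen chains, which bone and other connective tissues are also known to make, were abundant. In bulk tissue, fewer cells of a type and less RNA per cell cannot be told apart.

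Between limbs, in the mean of the 8 strains' changes, 4 of the 36 genes passed the false discovery rate (FDR) of 0.05. All 4 were higher in the immobilized limb. They are Col11a1 and Col11a2, the alpha chains that set the width of type II collagen fibrils, Matn4, a matrilin of cartilage and other loose matrices, and Pth1r, the receptor for PTH and PTHrP. Of 16882 genes tested, 7.43% passed, 4.58% with a higher and 2.86% with a lower level. The 36 genes had a median log2 change of 0.64, against 0.01 over all genes tested. The estimate was above 0 in 32 of them and in 52% of all genes. An unadjusted p under 0.05 was reached by 20 of the 36, with Sox6 the one of negative sign. By comparison, 13.3% of all genes were higher at that unadjusted level.

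The single A/J pair weighed on this mean. Without it, the mean over 7 strains had 16 of the 35 genes tested past the FDR, all higher, where 17.6% of all genes passed and 11.4% passed with a higher level. The 4 genes named above were among the 16. The others were Col9a2, Col9a3, Col27a1, Acan, Matn3, Hapln1, Susd5, Scin, Fgfr3, Trps1, Papss2 and Slc26a2. The median change of the 35 genes was then 0.84. Other single mice also moved the count. It was 12 without NZO/HlLtJ mouse 4, where 11.3% of all genes passed, and 10 without CAST/EiJ mouse 2, where 7.06% did. It was 1 without C57BL/6J mouse 6 or PWK/PhJ mouse 3, where 5.06% and 4.63% did. It was 2 without 129S1/SvImJ mouse 6, C57BL/6J mouse 4, CAST/EiJ mouse 4, NOD/ShiLtJ mouse 6, PWK/PhJ mouse 4 or WSB/EiJ mouse 4, where 5.16% to 5.92% of all genes passed. The A/J control library held 3794 CPM of Col11a1 and 42589 CPM of the bone collagen Col1a1, where the next highest control library, NZO/HlLtJ mouse 4, held 16428 CPM. In the same library Col10a1 was at 0 and Col9a1 at 2.60 CPM.

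**Figure D1:**
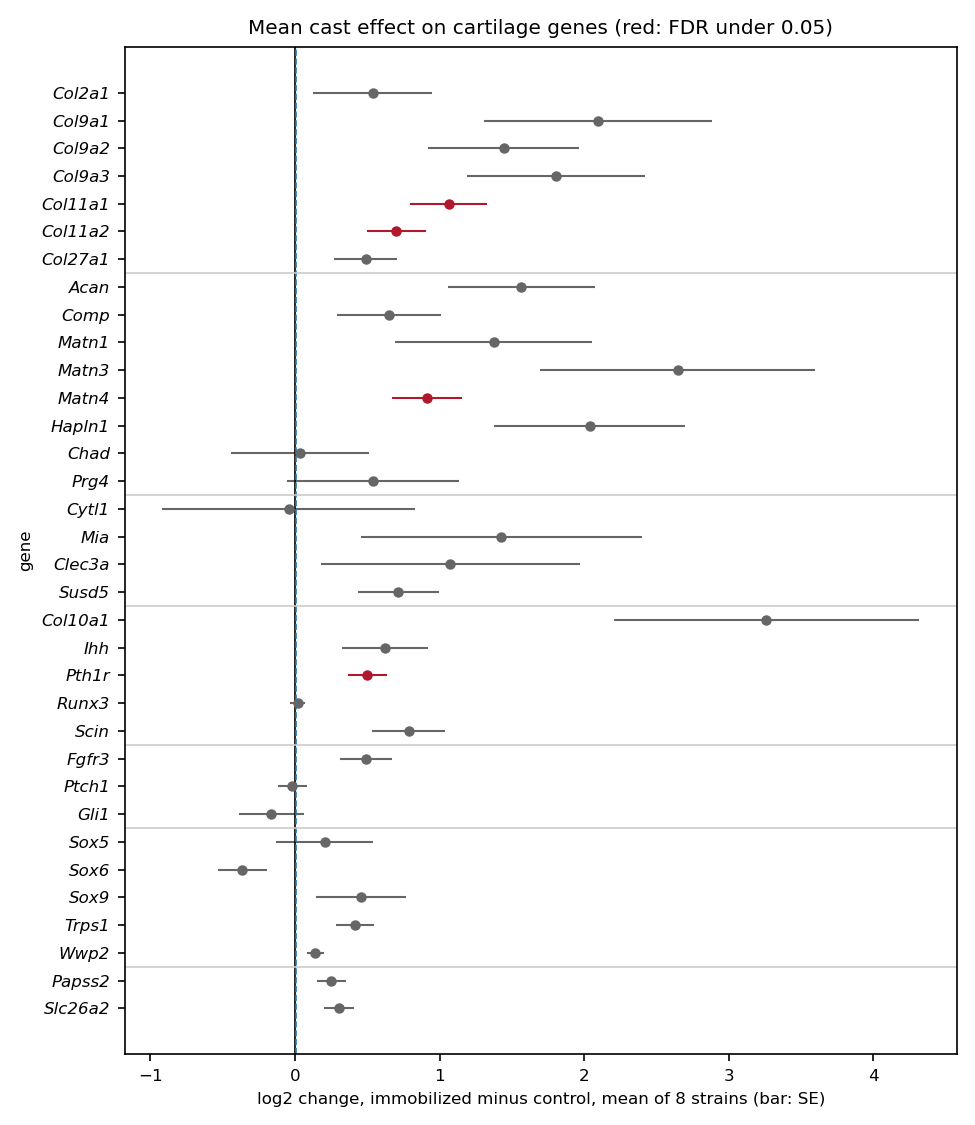
Mean log2 change between limbs over 8 strains (horizontal axis, with its standard error as bars) for 34 of the 36 genes, ordered by role and with the median of all genes tested as a dashed line at 0.01. Red points mark Col11a1, Col11a2, Matn4 and Pth1r, the 4 genes past the FDR; Col10a1, Matn3, Col9a1 and Hapln1 lie further right with wider bars, and Sox6 lies at -0.36.

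Among the fibril collagens, Col11a1 (ENSMUSG00000027966.20, GRCm38 chr3:114030540-114220718) ranged from 54.2 to 3794 CPM in control limbs, with a median of 331, and from 146 to 8208 CPM in immobilized limbs, with a median of 786. The ranges overlap across strains, and 17 of 22 mice had the higher level in the immobilized limb. The mean log2 change was 1.06 ± 0.27 (SE), a 2.09-fold rise with an adjusted p of 0.0250 (edgeR quasi-likelihood test, as for all adjusted p-values here). Without A/J it was 1.66, with an adjusted p of 0.000490. Col11a2 (ENSMUSG00000024330.17, chr17:34039437-34066685) ran from 105 to 3391 CPM in control and from 249 to 7669 CPM in immobilized limbs, with medians of 478 and 780. Its mean change was 0.70 ± 0.20, higher in 17 of 22 mice, with an adjusted p of 0.0446. That call rested near the threshold: leaving out any one of 16 mice ended it, with an adjusted p of up to 0.0813, and without A/J the change was 1.23 with an adjusted p of 0.000611.

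The other collagens moved over a wider range and did not pass the FDR in the mean of 8 strains. Col2a1 (ENSMUSG00000022483.17, chr15:97975602-98004695) ran from 4.43 to 1046 CPM in control and from 13.6 to 1609 CPM in immobilized limbs, with medians of 94.5 and 148. Its change was 0.54 ± 0.41, with an adjusted p of 0.489 and the immobilized limb higher in 13 of 22 mice. It was 1.04 without A/J (adjusted p = 0.0911) and 0.30 without NZO/HlLtJ mouse 4. The 3 chains of type IX collagen, which coats type II fibrils, had larger estimates with larger errors. Col9a1 changed by 2.09 ± 0.79 and was higher in 17 mice, Col9a2 by 1.44 ± 0.52 and in 18 mice, and Col9a3 by 1.81 ± 0.62 and in 15 mice. Their adjusted p-values were 0.116, 0.102 and 0.0840. Without A/J, Col9a2 and Col9a3 passed, with adjusted p-values of 0.0327 for each. Col27a1, a fibrillar collagen of the growth plate, changed by 0.49 ± 0.22 with an adjusted p of 0.182.

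Among the matrix proteins, Matn4 (ENSMUSG00000016995.17, chr2:164389393-164405160) was the one past the FDR. It ranged from 0.491 to 23.6 CPM in control and from 0.134 to 35.8 CPM in immobilized limbs, with medians of 2.25 and 4.83. The mean change was 0.91 ± 0.24, higher in 16 of 22 mice, with an adjusted p of 0.0299. Leaving out PWK/PhJ mouse 3 lowered it to 0.71, with an adjusted p of 0.0804, and leaving out C57BL/6J mouse 6 gave an adjusted p of 0.0555. Hapln1, the link protein that fixes aggrecan to hyaluronan, ran from 0.123 to 26.7 CPM in control limbs. In immobilized limbs it ran from 0 to 514 CPM, with medians of 3.98 and 12.2 in the 2 limbs. Its change of 2.04 ± 0.66 had an adjusted p of 0.0717 over 8 strains and of 0.0358 without A/J. Acan, the main proteoglycan of cartilage (ENSMUSG00000030607.7, chr7:79053483-79115099), had medians of 8.49 CPM in control and 26.0 CPM in immobilized limbs. Its change was 1.57 ± 0.51 over 8 strains (adjusted p = 0.0708), and it passed without A/J at 1.54 (adjusted p = 0.0384). Matn3, a matrilin of proliferating chondrocytes, gave 2.65 ± 0.95 over 8 strains (adjusted p = 0.0991) and 2.29 without A/J (adjusted p = 0.0330). Its A/J pair held 0 and 3 counts, too few for a fold.

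The remaining matrix proteins gave smaller or less certain values. Comp, a cartilage and tendon glycoprotein, changed by 0.65 ± 0.36 (adjusted p = 0.300). Matn1 changed by 1.37 ± 0.68 on 19 control and 62 immobilized counts in all. Prg4, the lubricin of joint surfaces, changed by 0.54 ± 0.59, by 1.25 without A/J and by 0.21 without PWK/PhJ mouse 3. Chad, a leucine-rich protein that binds collagen and chondrocytes, was the matrix protein of smallest change, at 0.035 ± 0.48, lower in 12 mice and higher in 10. Chad ranged from 2.33 to 210 CPM in control and from 1.005 to 122 CPM in immobilized limbs, and the sign of its mean turned negative when any one of 8 mice was left out. Epyc, another small leucine-rich protein, had no count in either limb of the A/J pair, so its mean over 8 strains has no usable error. Without A/J it was 1.52 with an adjusted p of 0.176.

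None of the 5 secreted and membrane genes passed the FDR over 8 strains. Susd5 changed by 0.72 ± 0.28, higher in 17 of 22 mice (adjusted p = 0.128), and passed without A/J at 0.84 (adjusted p = 0.0405). Clec3a, a cartilage lectin, changed by 1.07 ± 0.89, and Mia, a small protein secreted by chondrocytes, by 1.43 ± 0.97. The Mia value includes an A/J pair of 0 and 3 counts, and was 0.79 with that pair set to no change and 0.90 without it. Cytl1, a cytokine-like chondrocyte product, had the smallest change, -0.042 ± 0.87. It spanned 0.491 to 135 CPM in control and 0 to 98.1 CPM in immobilized limbs. Ucma, a matrix protein of the upper growth plate, also had no count in the A/J pair, and without it gave 1.49 with an adjusted p of 0.148. Lect1, the chondromodulin gene outside the list, gave 1.06 ± 0.92, higher in 11 mice and lower in 11.

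Of the hypertrophic genes, Pth1r (ENSMUSG00000032492.14, chr9:110722085-110747145) passed in the mean. It is carried by prehypertrophic chondrocytes and, as is well known, by osteoblasts. Its level ran from 35.6 to 215 CPM in control and from 51.9 to 292 CPM in immobilized limbs, with medians of 81.8 and 133. The mean change was 0.50 ± 0.14, a 1.42-fold rise seen in 14 of 22 mice, with an adjusted p of 0.0352. Leaving out any one of 9 mice raised the adjusted p above the threshold, to at most 0.0619. Without A/J the change was 0.77 with an adjusted p of 0.000928.

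Col10a1 (ENSMUSG00000039462.4, chr10:34389981-34397085), the collagen of hypertrophic chondrocytes, had the largest estimate of the list and did not pass. It spanned 0 to 68.3 CPM in control and 0.134 to 699 CPM in immobilized limbs, with medians of 1.55 and 6.87. The fitted mean change was 3.26 ± 1.06, with an adjusted p of 0.0705 and the immobilized limb higher in 15 of 22 mice. A/J contributed much of it, with 0 counts in the control and 289 in the immobilized limb, which is at least 94.0-fold higher against a floor of 3 counts in that pair. With that bound in place of the fitted value the mean was 2.62, and without A/J it was 2.06 with an adjusted p of 0.0939.

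Ihh, the hedgehog ligand of prehypertrophic cells (ENSMUSG00000006538.12, chr1:74945315-74951672), ran from 0.123 to 7.83 CPM in control and from 0.402 to 16.8 CPM in immobilized limbs. Its change was 0.62 ± 0.30 (adjusted p = 0.218), with 12 mice higher and 10 lower. Scin, an actin-severing protein known from hypertrophic chondrocytes, gave 0.79 ± 0.25 (adjusted p = 0.0676) and passed without A/J at 0.81 (adjusted p = 0.0278). Runx3, a transcription factor of chondrocyte maturation and of blood cells, changed least, by 0.019 ± 0.053, and kept within 12.2 to 29.7 CPM in both limbs.

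None of the 3 FGF and hedgehog signalling genes passed over 8 strains. Ptch1, the hedgehog receptor and a transcriptional target of the pathway, changed by -0.019 ± 0.10. Gli1, a second target, changed by -0.16 ± 0.22, lower in 13 mice. Both estimates turned positive without A/J, at 0.12 and 0.095, and neither passed. Fgfr3, the FGF receptor that restrains growth plate proliferation, gave 0.49 ± 0.18 (adjusted p = 0.103), higher in 17 of 22 mice, and 0.64 without A/J (adjusted p = 0.0171).

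None of the 5 transcription regulators passed over 8 strains. Sox9 (ENSMUSG00000000567.5, chr11:112782224-112787760) ran from 0.536 to 8.65 CPM in control and from 0.671 to 16.6 CPM in immobilized limbs, with a change of 0.46 ± 0.31 (adjusted p = 0.420), and 0.29 without WSB/EiJ mouse 2. Sox5 gave 0.20 ± 0.33. Sox6, also known as a factor of erythroid precursors, was the gene of largest negative estimate, -0.36 ± 0.17, lower in 18 of 22 mice (adjusted p = 0.211). Its lowest control level, 7.30 CPM, was in the NZO/HlLtJ mouse 4 library with few erythroid counts, and its highest was 122 CPM. Without that mouse the change was -0.49 with an adjusted p of 0.00887, and the part of erythroid cells in it was not tested. Trps1, a zinc finger repressor of chondrocytes, changed by 0.41 ± 0.13 (adjusted p = 0.0667) and passed without A/J at 0.52 (adjusted p = 0.0102), and also without NZO/HlLtJ mouse 4, CAST/EiJ mouse 2 or PWK/PhJ mouse 6. Wwp2, a ubiquitin ligase induced by Sox9, changed by 0.14 ± 0.061 (adjusted p = 0.167). The sulfate genes are needed for chondroitin sulfate: Papss2 makes the sulfate donor and gave 0.25 ± 0.098, and the sulfate transporter Slc26a2 gave 0.30 ± 0.10. Their adjusted p-values were 0.125 and 0.0729, and 0.0131 and 0.0115 without A/J.

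By growth plate zone, 3 of the 20 resting and proliferative genes (Col11a1, Col11a2 and Matn4) and 1 of the 5 hypertrophic genes (Pth1r) passed in the mean of 8 strains. Bone also makes the type XI chains and osteoblasts carry Pth1r, so these calls do not by themselves place a change in a zone. The cells behind them were not tested. Of all genes 7.43% passed, 4.58% with a higher level. The median change was 1.19 over the resting and proliferative genes and 0.62 over the hypertrophic genes. The former was 1.03 with Matn1 in NZO/HlLtJ set to its bound and the A/J pairs of Matn3, Mia, Epyc and Ucma set to no change. Averaged within each mouse, the resting and proliferative genes differed between limbs by -1.20 to 4.77 on the log2 CPM scale, with a median of 0.99, and the hypertrophic genes by -1.29 to 3.84, with a median of 0.83. WSB/EiJ mouse 5 had the lowest and NZO/HlLtJ mouse 5 the highest value in both zones. Both zones were higher in the immobilized limb in 15 mice and lower in 5, and they went opposite ways in 2. The hypertrophic mean exceeded the resting and proliferative mean in 10 of 22 mice, so no order between the zones was seen over mice.

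Single mice held much of the spread. NZO/HlLtJ mouse 5 had the largest rise for 18 of the 36 genes, with 34 of them higher in its immobilized limb and a median log2 difference of 3.02. CAST/EiJ mouse 3 had the largest rise for 7 genes and PWK/PhJ mouse 3 for 6. At the other end, WSB/EiJ mouse 5 had the largest fall for 11 genes, with 29 of them lower and a median of -0.99. C57BL/6J mouse 1 had 28 genes lower, and PWK/PhJ mouse 6 and WSB/EiJ mouse 4 had 25 each. Hapln1 spanned the widest range of differences, from -4.96 in CAST/EiJ mouse 2 to 9.98 in NZO/HlLtJ mouse 5, while Runx3 stayed between -0.52 and 0.54.

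**Figure D2:**
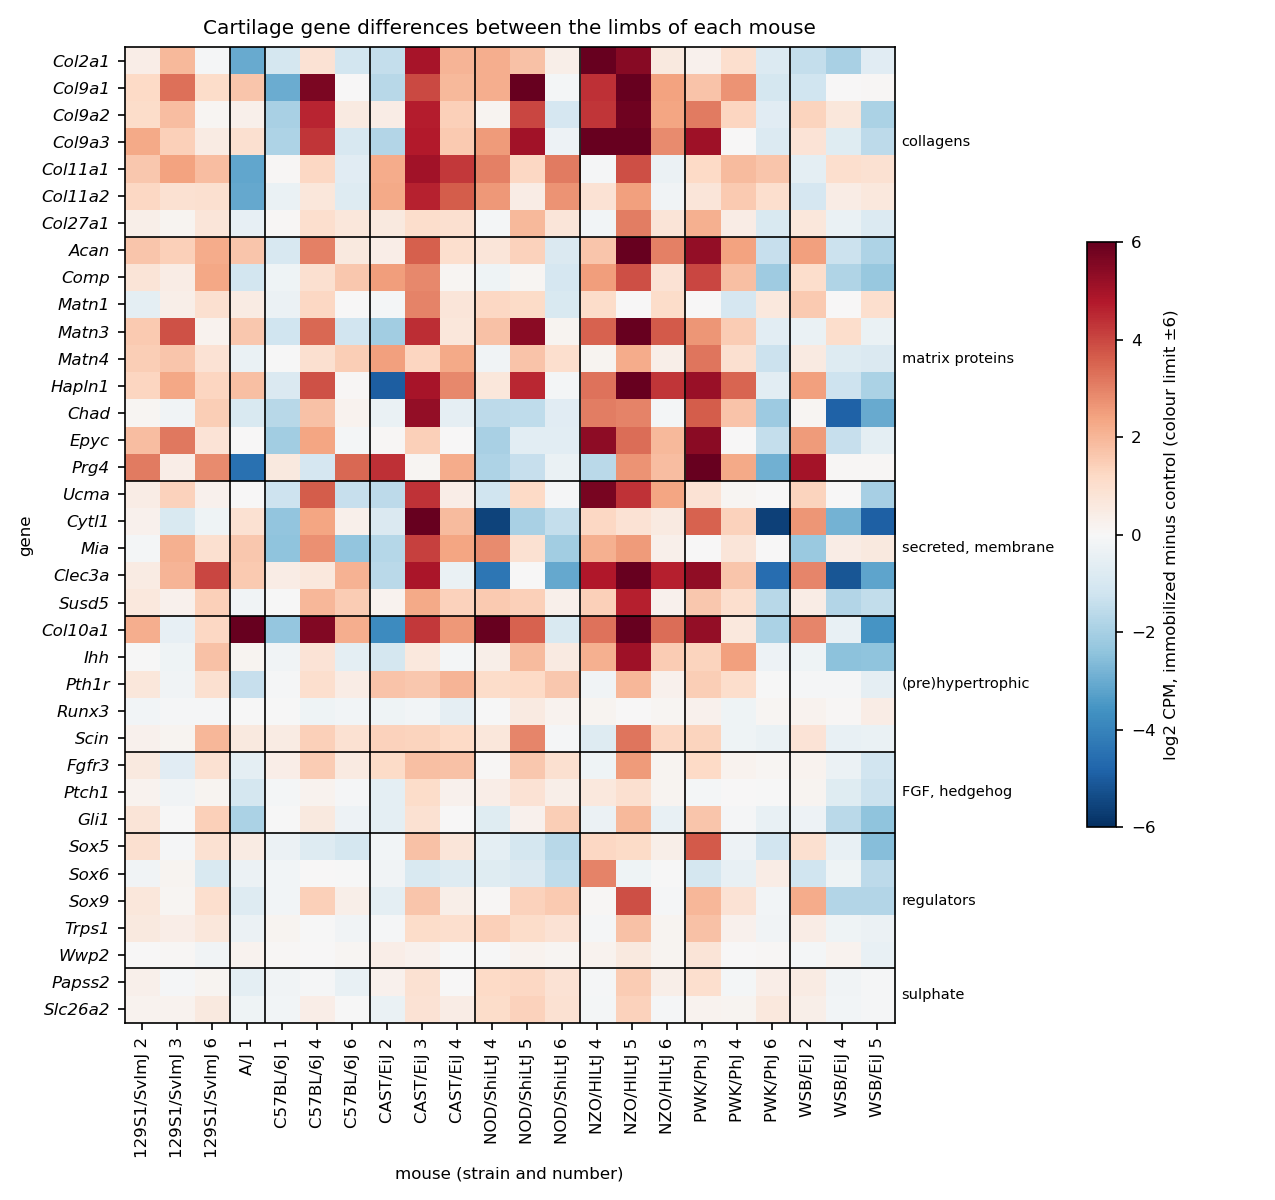
Difference in log2 CPM between the immobilized and the control limb for the 36 genes (rows, by role) in each of 22 mice (columns, by strain); red is higher and blue lower in the immobilized limb, and colours end at ±6. NZO/HlLtJ mouse 5, CAST/EiJ mouse 3 and PWK/PhJ mouse 3 are red down most of the matrix genes, WSB/EiJ mouse 5 is mostly blue, and the Runx3 row is pale throughout.

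The cartilage genes did not all follow the same mice. Col11a1 and Col11a2 had the same sign of difference as Col1a1, the main collagen of bone, in 20 of 22 mice each, and the same sign as Col9a1, a cartilage collagen, in 14 and 16. Hapln1, Matn3 and Col9a2 shared the sign of Col9a1 in 19 of 22 mice, and Acan, Col9a3, Col10a1 and Mia in 18. With Col1a1 the counts were 17 for Matn3, 15 for Col9a2 and Mia, 14 for Acan and Col9a3, 13 for Hapln1 and 12 for Col10a1. Pth1r matched Col1a1 and Col9a1 in 15 mice each, and Sox6 matched either in 7. Col1a1 itself changed by 1.08 ± 0.22 in the mean, higher in 19 of 22 mice (adjusted p = 0.0112). These counts describe shared direction within these 22 mice, and the genes share libraries and depth.

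**Figure D3:**
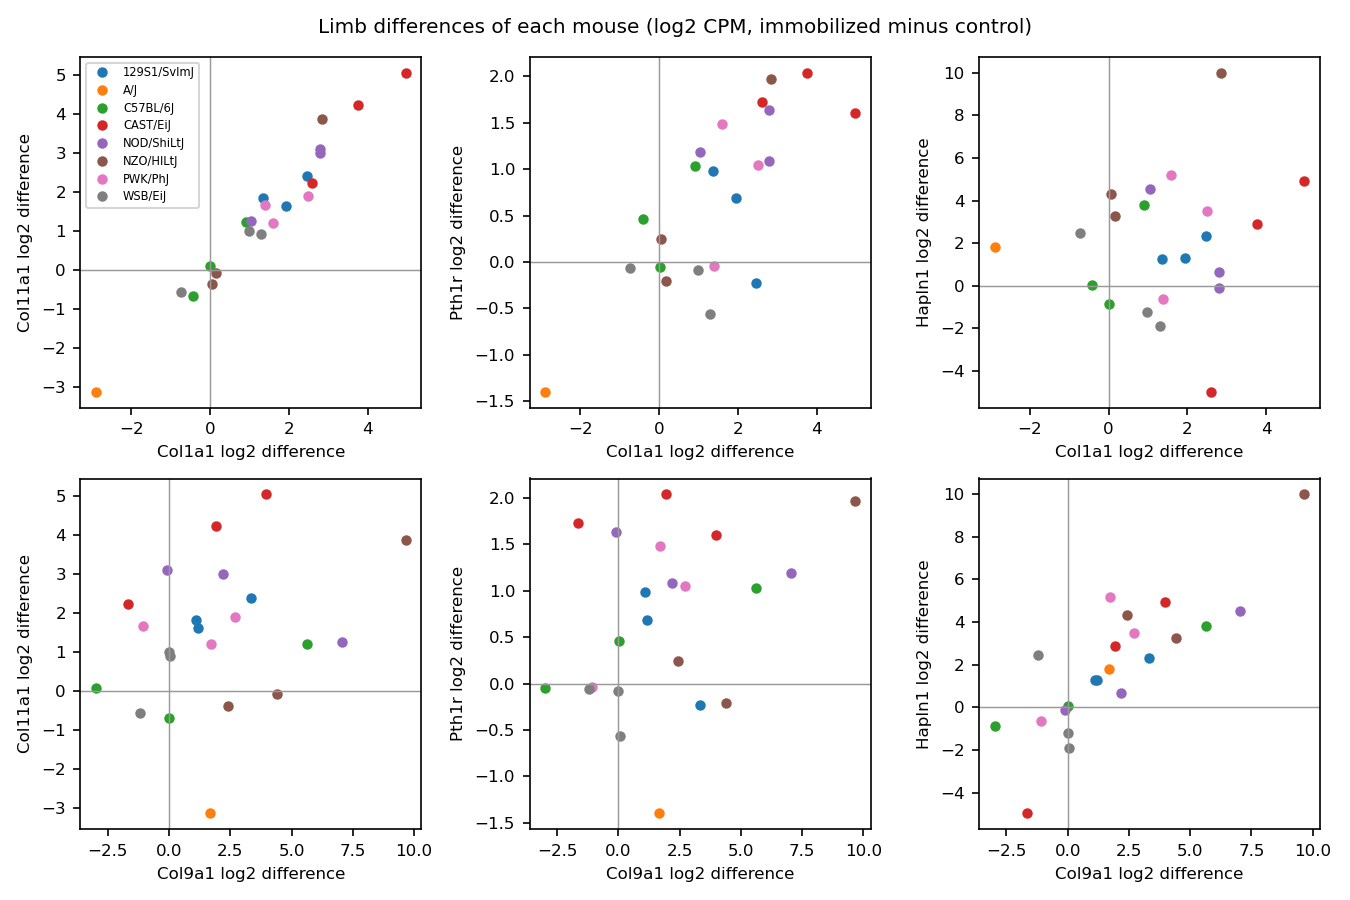
Differences between limbs in log2 CPM for Col11a1, Pth1r and Hapln1 (vertical axes) against those of Col1a1 (upper row) and Col9a1 (lower row), 1 point per mouse coloured by strain. Col11a1 lies along Col1a1, sharing its sign in 20 of 22 mice, and Hapln1 along Col9a1, sharing its sign in 19 of 22.

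Markers of other cell types moved with the limb as well. Over 10 osteoblast markers the summed level ran from 4966 to 123837 CPM in control and from 8151 to 300720 CPM in immobilized limbs, and the list mean was higher in 18 of 22 mice. The 8 osteoclast markers ran from 1026 to 6638 CPM in control and from 1615 to 9095 CPM in immobilized limbs, also higher in 18 mice. The 10 skeletal muscle markers ran from 51.6 to 57581 CPM in control and from 18.1 to 20165 CPM in immobilized limbs, higher in 6 mice. The 6 tendon and synovium markers, Prg4 among them, ran from 16.95 to 1139 CPM and from 31.9 to 4628 CPM, higher in 13 mice. The 10 chondrocyte markers, of which 9 belong to the genes described here and the other is Lect1, ran from 11.9 to 1063 CPM in control and from 36.6 to 3711 CPM in immobilized limbs, higher in 15 mice. No defining list was at 0 in any of these libraries, and their part in the cartilage gene differences was not tested. With the skeletal muscle markers as a covariate, 4 of the 36 genes passed, where 4.68% of all genes did, and 2 of them were among the 4 of the mean. Col11a1 (1.26, adjusted p = 0.0745) and Col11a2 (0.79, adjusted p = 0.137) did not.

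Within CAST/EiJ, a wild-derived strain, 5 of the 36 genes rose and none fell, where 13.9% of all genes passed, 8.38% with a higher and 5.47% with a lower level. They were Col11a1, Col11a2, Matn4, Pth1r and Fgfr3. Col11a1 was at 114, 196 and 268 CPM in the 3 control limbs and at 1261, 3718 and 3790 CPM in the immobilized limbs. Every immobilized limb was thus above every control limb, and the change was 3.89 ± 0.74 (adjusted p = 0.00315). Col11a2 stood at 158, 320 and 450 CPM in control and at 2178, 3904 and 4022 CPM in immobilized limbs, a change of 3.54 ± 0.57 (adjusted p = 0.000982). Pth1r went from 49.1, 69.5 and 85.1 CPM to 202, 230 and 258 CPM, a change of 1.81 ± 0.35 (adjusted p = 0.00327). Matn4 was low, at 0.592, 0.690 and 1.29 CPM in control and 3.56, 3.81 and 4.94 CPM in immobilized limbs, with no overlap. Its change of 2.27 ± 0.64 (adjusted p = 0.0257), and that of Fgfr3, 1.60 ± 0.45 (adjusted p = 0.0275), did not pass when any one CAST/EiJ mouse was left out, and 3 genes then remained past the FDR. Hapln1 behaved otherwise in the same mice, at 0.277, 0.423 and 7.48 CPM in control and at 0, 4.69 and 15.7 CPM in immobilized limbs. The limbs also overlapped for Col9a1 and Col9a3. For Col9a2, Col27a1, Acan, Comp and Susd5, which did not pass, every immobilized limb was above every control limb. For Runx3 and Sox6, which did not pass either, every immobilized limb was below. Such separation was not counted over all genes.

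Set against the mean of the other 7 strains, the CAST/EiJ change was larger for 3 genes, where 7.94% of all genes passed, 5.07% with a larger and 2.87% with a smaller change. The excess was 3.24 ± 0.77 for Col11a1, 3.25 ± 0.60 for Col11a2 and 1.49 ± 0.38 for Pth1r, with adjusted p-values of 0.0200, 0.00604 and 0.0240. Leaving out CAST/EiJ mouse 3 or mouse 4 left 0 of the 3 past the FDR. A test of any difference among the 8 strains' changes called Col11a2 alone of the 36 (adjusted p = 0.0365), where 2.5% of all genes passed. That test called none without A/J mouse 1, C57BL/6J mouse 1 or 6, CAST/EiJ mouse 3 or 4, PWK/PhJ mouse 4 or WSB/EiJ mouse 4 or 5. In those fits 0.0251% to 1.17% of all genes passed. It called 2 to 4 without NZO/HlLtJ mouse 4 or 5 or PWK/PhJ mouse 6, where 3.87% to 7.03% of all genes did.

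In NOD/ShiLtJ, a strain prone to autoimmune diabetes, 6 of the 36 genes rose and none fell, where 8.33% of all genes passed, 5.55% with a higher and 2.78% with a lower level. Col11a1 was at 306, 638 and 953 CPM in control limbs and at 1527, 2456 and 8208 CPM in immobilized limbs, without overlap, a change of 2.51 ± 0.69 (adjusted p = 0.0349). Col11a2 changed by 1.99 ± 0.55 (adjusted p = 0.0342). Pth1r went from 81.1, 93.7 and 98.7 CPM to 185, 210 and 292 CPM, a change of 1.34 ± 0.35 (adjusted p = 0.0263). Trps1, Papss2 and Slc26a2 rose by 1.18 ± 0.34, 1.14 ± 0.25 and 1.17 ± 0.25. Sox6 was lower in all 3 mice, by -1.01 ± 0.43 (adjusted p = 0.154), as were Cytl1 (-3.04 ± 1.74) and Chad (-1.23 ± 1.05), without passing. These calls were fragile: leaving out mouse 4 or mouse 6 left 0 of the 36, and 0 and 2 of all genes, past the FDR. Against the other 7 strains none of the 36 passed in NOD/ShiLtJ, where 0.172% of all genes did, 0.124% with a larger and 0.0474% with a smaller change, and 8 of the 36 and 18.1% of all genes had an unadjusted p under 0.05.

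**Figure D4:**
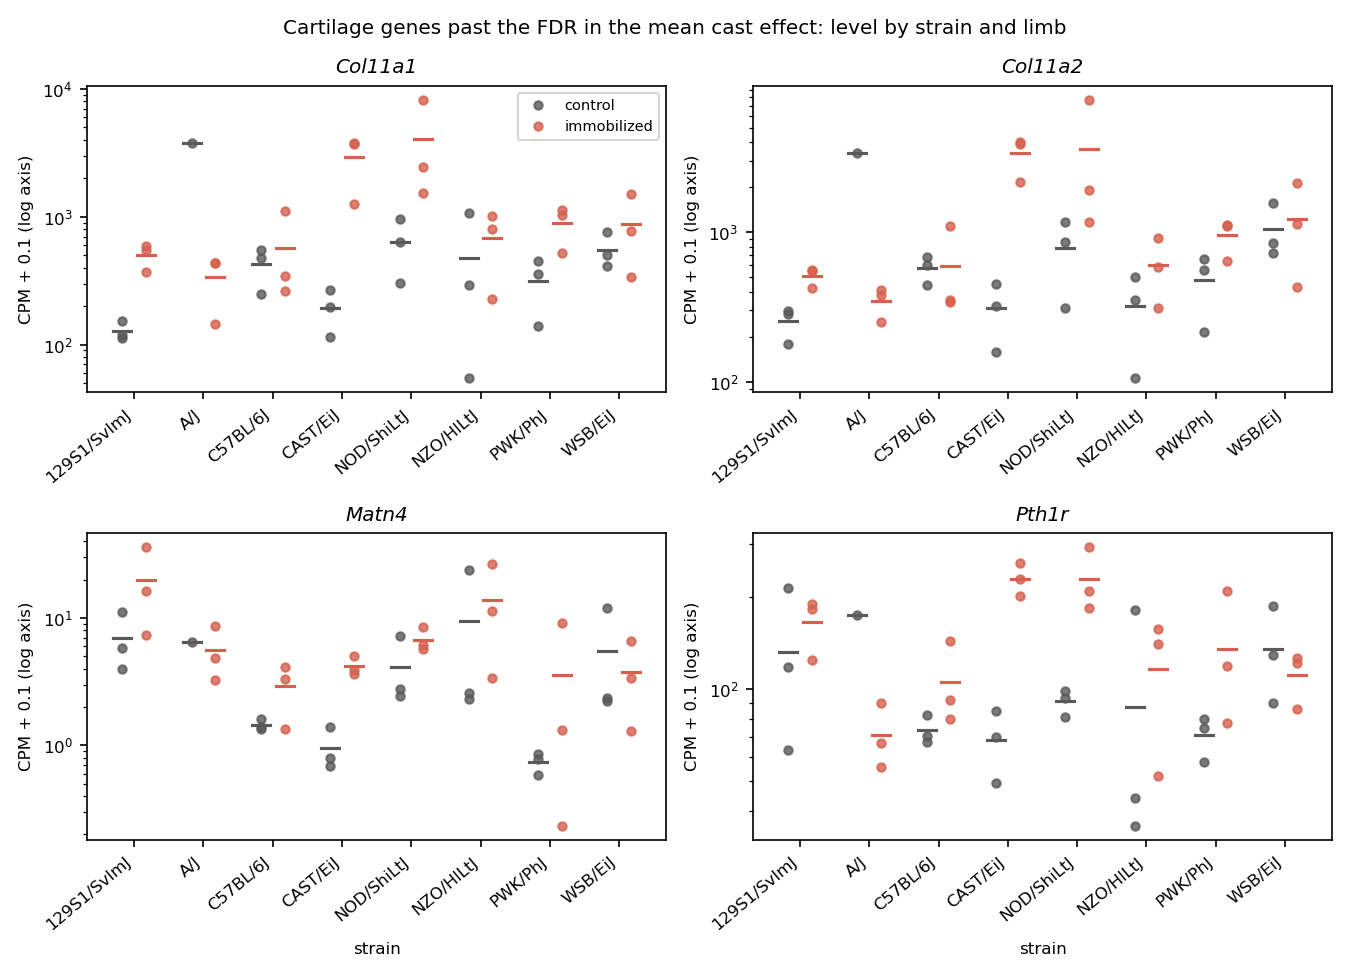
Level in CPM plus 0.1 (log axis) of Col11a1, Col11a2, Matn4 and Pth1r in each usable library, by strain, with control limbs grey, immobilized limbs red and bars at the group mean. In CAST/EiJ all immobilized limbs lie above all control limbs for the 4 genes, and in A/J the single control library lies above the 3 immobilized ones for Col11a1, Col11a2 and Pth1r.

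NZO/HlLtJ, an obese strain, had the largest estimates of the 8 strains for Col2a1, Col9a1, Col9a2 and Col9a3, without a call. All 36 estimates were above 0, with a median of 1.17, and 16 had an unadjusted p under 0.05, as did 2.17% of all genes, but 0 passed the FDR, which 1 of 16882 genes did (0.00592%). Col2a1 was at 9.55, 36.1 and 126 CPM in control and at 187, 1569 and 1609 CPM in immobilized limbs, a change of 4.78 ± 1.41 with an unadjusted p of 0.00354 (adjusted p = 1). The 3 immobilized limbs were above the 3 controls. The control at 9.55 CPM was that of mouse 4, the library with few erythroid counts, and this mouse had the largest Col2a1 difference, 7.32. The 3 immobilized libraries held 13410118 to 14744056 counts and the 3 controls 7746981 to 7857780. Depth and limb thus cannot be told apart in this strain. Col9a1 was at 0, 0.654 and 5.17 CPM against 4.58, 114 and 200.5 CPM, and Hapln1 at 0.261, 0.654 and 11.8 CPM against 17.6, 115 and 514 CPM. Col10a1 was at 0.392, 1.17 and 9.66 CPM against 6.31, 95.8 and 699 CPM. Mouse 6 was the lowest of the 3 immobilized limbs for each of these 4 genes. Ihh had the smallest unadjusted p of the 36 here, with a change of 3.66 ± 0.82 (adjusted p = 0.687). Col11a1 differed in this strain by 0.92 ± 0.74, higher in 1 of 3 mice.

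WSB/EiJ, another wild-derived strain, lay on the other side. There 8 of 36 estimates were above 0, the median was -0.31, and none passed, as did 1 of all genes. Ihh was at 1.47, 5.49 and 7.83 CPM in control and at 0.806, 1.21 and 1.28 CPM in immobilized limbs, without overlap, a change of -1.95 ± 0.70 (unadjusted p = 0.0121, adjusted p = 0.702). Col2a1 was at 313, 417 and 499 CPM in control and at 131, 153 and 197 CPM in immobilized limbs, also without overlap (-1.36 ± 0.98, adjusted p = 0.867). Against the other 7 strains, 8 of the 36 had an unadjusted p under 0.05 in WSB/EiJ, as did 6.2% of all genes, and 0 passed, as did 0 of all genes.

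In 129S1/SvImJ, C57BL/6J and PWK/PhJ none of the 36 passed either, where 0, 0.00592% and 0.0889% of all genes did. In PWK/PhJ these were 0.0355% with a higher and 0.0533% with a lower level. Col11a1 in 129S1/SvImJ was at 112, 119 and 154 CPM in control and at 368, 552 and 595 CPM in immobilized limbs, without overlap, for a change of 1.97 ± 0.66 (unadjusted p = 0.00815, adjusted p = 1). In PWK/PhJ it changed by 1.61 ± 0.65 (adjusted p = 0.331). In C57BL/6J none of the 36 reached an unadjusted p under 0.05, where 4.88% of all genes did, and Col11a1 changed by 0.22 ± 0.66. The number of genes at an unadjusted p under 0.05 was 4 of 36 in PWK/PhJ, in A/J and in WSB/EiJ, against 12.2%, 25.1% and 6.43% of all genes.

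**Figure D5:**
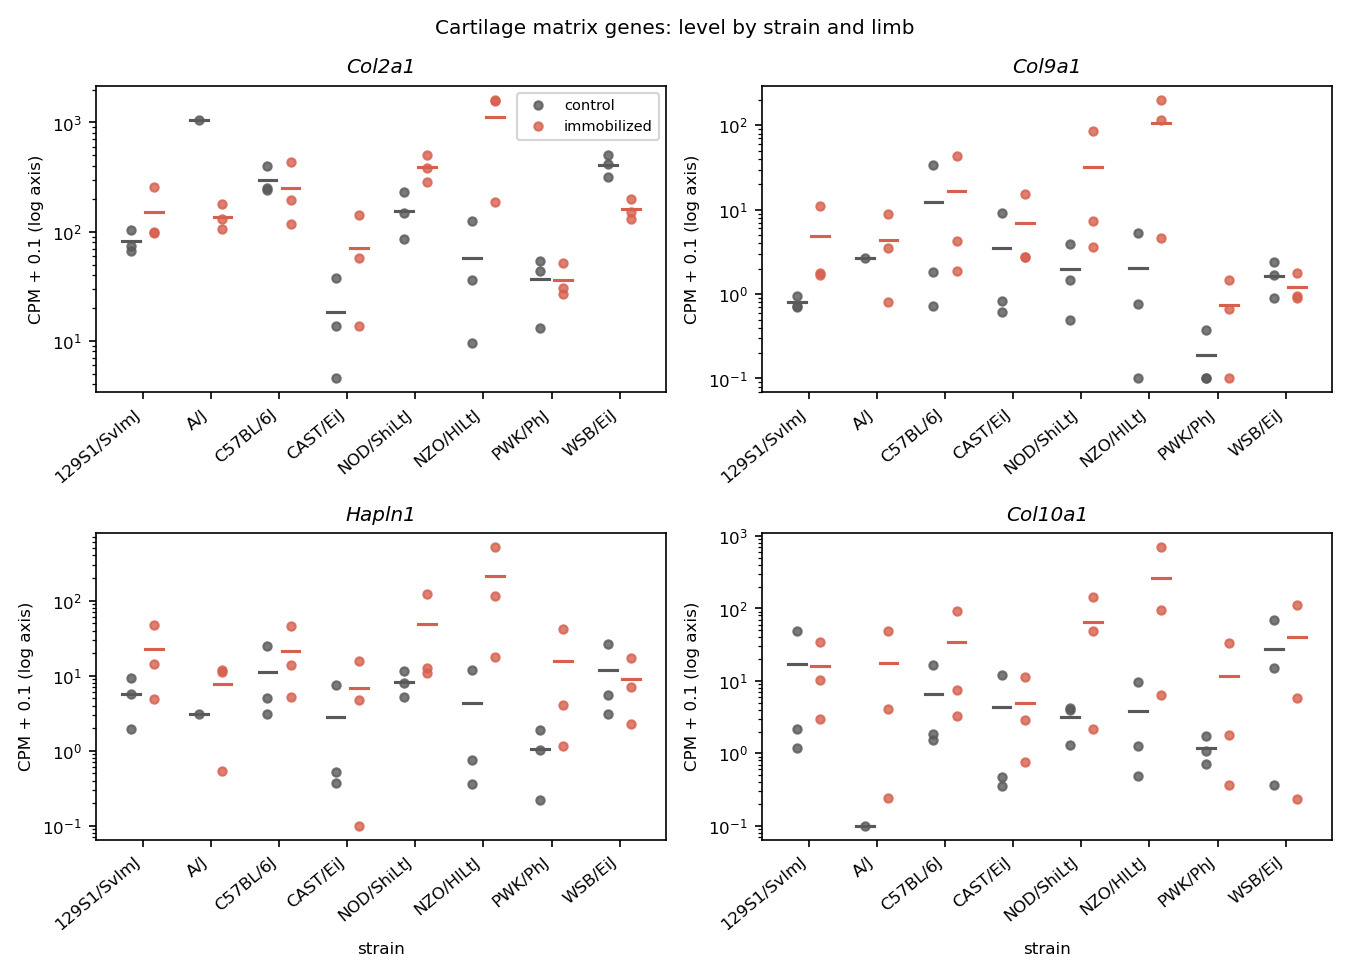
Level in CPM plus 0.1 (log axis) of Col2a1, Col9a1, Hapln1 and Col10a1 in each usable library, by strain, with control limbs grey, immobilized limbs red and bars at the group mean. NZO/HlLtJ immobilized limbs reach 1609 CPM of Col2a1 and 699 CPM of Col10a1, while libraries of 1 group often spread over more than a 10-fold range.

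The A/J pair went against the other strains for the type XI chains. Col11a1 was at 3794 CPM in the usable control limb and at 436 CPM in the immobilized limb of the same mouse. The 2 other immobilized A/J limbs held 432 and 146 CPM. Col11a2 was at 3391 CPM in the control and at 410, 382 and 249 CPM in the immobilized limbs, and Col2a1 at 1046 against 129, 178 and 106 CPM. Against the mean of the other 7 strains, the A/J change was lower by -4.74 ± 1.29 for Col11a1, -4.25 ± 0.999 for Col11a2 and -2.13 ± 0.63 for Pth1r. Their adjusted p-values were 0.0325, 0.0191 and 0.0421, where 9.38% of all genes passed, 4.74% with a larger and 4.64% with a smaller change. Within A/J itself none of the 36 passed, where 3.99% of all genes did, 2.71% with a higher and 1.28% with a lower level. These values rest on 1 control library, whose Col1a1 level was 42589 CPM against 5740, 9911 and 2351 CPM in the immobilized limbs, and which cannot be checked against another A/J control.

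Control limbs alone were compared to ask how far the strains differed without a cast. Reads of all strains were assigned to a reference genome derived from C57BL/6J, and its part in strain differences was not tested. Of 35 genes tested (Matn1 was too low), 9 differed among strains, where 40.6% of all genes did. They were Col2a1, Col11a1, Col11a2, Comp, Matn4, Chad, Clec3a, Ihh and Wwp2, with adjusted p-values from 0.000787 for Col2a1 to 0.0495 for Comp. Without the NZO/HlLtJ mouse 4 control, 20 of the 35 differed among strains, where 55.6% of all genes did. Col2a1 was at 4.43, 13.5 and 37.4 CPM in CAST/EiJ and at 13.1, 43.3 and 54.2 CPM in PWK/PhJ, against 313, 417 and 499 CPM in WSB/EiJ. Relative to the other 7 strains it was lower by -3.17 ± 0.73 in CAST/EiJ (adjusted p = 0.00494) and by -2.03 ± 0.67 in PWK/PhJ (adjusted p = 0.0458), and higher by 1.95 ± 0.50 in WSB/EiJ (adjusted p = 0.0252). The CAST/EiJ call held without any one of its controls, with an adjusted p of at most 0.0423, and the WSB/EiJ call did not, with an adjusted p of up to 0.116. In these 3 tests 22.7%, 16.7% and 6.54% of all genes passed. In the order of mean control levels of Col2a1, 1 of 6 neighbouring strain pairs with replicates did not overlap.

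WSB/EiJ controls were also higher in Chad, Clec3a, Ihh and Wwp2, and PWK/PhJ controls lower in Chad, Matn4 and Papss2. Ihh exceeded the other strains by 2.30 ± 0.50 in WSB/EiJ (adjusted p = 0.00916) and by 1.80 without mouse 5 (adjusted p = 0.141). Clec3a exceeded them by 4.05 ± 0.91, with 4.02, 27.3 and 118 CPM, and by 2.38 without mouse 5 (adjusted p = 0.297). Without the same mouse, Chad went from 2.22 to 1.38 (adjusted p = 0.449) and Wwp2 from 0.42 to 0.20 (adjusted p = 0.370). Chad was 22.5, 104 and 210 CPM in WSB/EiJ, 83.0, 105 and 137 CPM in NOD/ShiLtJ, where it was the 1 gene called, higher (2.14 ± 0.64, adjusted p = 0.0393) with 10.8% of all genes called, and 2.33, 4.71 and 8.26 CPM in PWK/PhJ (-2.89 ± 0.96, adjusted p = 0.0482). The NOD/ShiLtJ call did not hold when any one of its 3 controls was left out, and neither did the PWK/PhJ calls of Col2a1, Matn4, Chad and Papss2 for theirs.

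C57BL/6J controls were called higher in Col9a1, Col9a3, Matn3, Mia and Ucma, and in Lect1 beside them, where 8.83% of all genes passed. The call rested on mouse 1. Col9a1 was at 34.3 CPM in that control and at 0.631 and 1.74 CPM in the others, and Matn3 at 10.2 against 0.631 and 1.16 CPM. Without mouse 1, the Col9a1 difference fell from 3.33 ± 0.90 to -0.035 (adjusted p = 1) and that of Matn3 from 3.96 ± 1.01 to 1.82 (adjusted p = 0.440). The 129S1/SvImJ call of Cytl1, 3.34 ± 0.86, was the 1 call of 35 there, where 6.49% of all genes passed, and dropped to 1.37 without mouse 3 (adjusted p = 0.704). A/J, with 1 control, was called higher in Col2a1, Col11a1 and Col11a2, by 3.50, 3.48 and 2.83, where 1.69% of all genes passed. NZO/HlLtJ had no call among the 35, against 4.61% of all genes.

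Other genes of growth plate pathways were counted from lists that share some of the 36 genes. Of 20 tested genes of the hedgehog and PTHrP pathway, 2 rose in the mean of 8 strains, Pth1r and Gas1, a hedgehog co-receptor (0.53 ± 0.15, adjusted p = 0.0414). The list median was 0.18, and 4.58% of all genes rose in this mean. The PTHrP gene Pthlh gave -1.27 ± 0.86. In CAST/EiJ 9 of the 20 rose and none fell, among them Smo, Gli3, Gas1 and Kif7, where 8.38% of all genes rose and 5.47% fell. Of 18 genes for FGF, BMP and C-type natriuretic peptide signalling none passed in the mean, where 7.43% of all genes did. An unadjusted p under 0.05 was reached by 4, as by 23.2% of all genes, and the list median was 0.11. Against the same 8.38% of all genes, 9 rose in CAST/EiJ, including Fgfr1, Fgfr2, Fgfr3 and Npr2, the receptor for C-type natriuretic peptide.

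Of 19 genes of chondroitin sulfate synthesis and sulfation, 5 rose and 1 fell in the mean, where 4.58% of all genes rose and 2.86% fell. The median over these 19 was 0.20. Chpf and Chpf2, which extend the chondroitin chain, rose by 0.44 ± 0.12 and 0.36 ± 0.070, the sulfotransferase Chst13 rose by 0.43 ± 0.10, and Chst3, another sulfotransferase, fell by 0.60 ± 0.15 (adjusted p = 0.0235). In NOD/ShiLtJ 9 of the 19 rose, Papss2 and Slc26a2 among them, where 5.55% of all genes rose.

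Of 15 tested genes of hypertrophy and mineralization, 7 rose and none fell, with a list median of 0.52. Panx3, a channel of prehypertrophic chondrocytes and osteoblasts, rose by 1.88 ± 0.38 (adjusted p = 0.0103) in 18 of 22 mice. Ibsp, a bone sialoprotein, rose by 1.13 ± 0.26 and the collagenase Mmp13 by 0.94 ± 0.20, in 19 and 20 mice. The other 4 were Spp1, Phospho1, Sp7 and Alpl, and osteoblasts are known to express these 7 genes as well. Of 15 other cartilage genes, 3 rose, against the same 4.58% of all genes. They were the type VI collagen chains Col6a1, Col6a2 and Col6a3, by 0.82, 0.90 and 0.72.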

How the data were processed

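The files hold raw counts per gene, deposited for 48 libraries; per the labels, RNA was flash-frozen tibial metaphysis made into stranded poly(A) libraries. Per the submitters' processing notes, featureCounts, DESeq2 and the mm10 build were used; no version or strand setting is given in the sources used here, so overlapping and antisense reads cannot be told apart. The 46 libraries above 1000000 counts (5253408 to 14744056) were kept. Genes were filtered with filterByExpr, and 44 libraries of 22 mice were fitted with edgeR 4.0.16 (R 4.3.3, TMM, quasi-likelihood test) with mouse as a block and a cast effect per strain; 22 control libraries were fitted by strain. P-values were adjusted by Benjamini-Hochberg over all genes tested, at an FDR of 0.05. Differences per mouse are log2 CPM with a prior count of 2. The limbs pair by animal, as the series' design states; their deviations from group means correlated with a median of 0.0908 over 21 mice (-0.26 to 0.548, 10 above 0.1). The scripts were tested on simulated data. DESeq2 1.42.0, RLE scaling, no filter, no block, all libraries, a muscle covariate and leaving out each mouse were alternatives. Members and lists were chosen with earlier results of these data known; full values are given for genes past the FDR in any comparison, the largest and smallest mean change of each role, and Col2a1, Acan, Col10a1, Ihh and Sox9. Sequences are RefSeq's (GRCm38.p6).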

Additional observations from a re-analysis of the deposited data

Results flagged for a closer look

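The change between limbs differed between strains for 3 genes, by a test of the difference itself, in A/J and in CAST/EiJ, where 9.38% and 7.94% of all genes differed. In A/J, with 1 usable pair, it was lower than the mean of the other 7 strains by -4.74 for Col11a1, -4.25 for Col11a2 and -2.13 for Pth1r on the log2 scale. In CAST/EiJ it was higher than the mean of the other 7, by 3.24 for Col11a1, 3.25 for Col11a2 and 1.49 for Pth1r, in 3 of 3 mice each, and none of the 3 passed without CAST/EiJ mouse 3 or mouse 4, nor did Pth1r without mouse 2. Each mean of 7 contains the other of these strains, so the A/J and CAST/EiJ values are not independent. Col11a2 also passed the test of any difference among the 8 strains, with an adjusted p of 0.0365 (edgeR). It was the 1 gene of the 36 to pass that test, where 2.5% of all genes did. In each of these tests the share of the 36 genes that passed was close to the share of all genes. The calls thus do not set the cartilage genes apart from genes in general.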

How the results depend on the processing

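The number of the 36 genes past the FDR in the mean of 8 strains, 4 as reported, was 15 with DESeq2 (7.28% of all genes), 1 without the filter on low counts (2.91%), 7 with all 48 libraries (8.7%), and 17 with both the NZO/HlLtJ mouse 4 and A/J mouse 1 pairs left out (24.1%), the last chosen after seeing the data. It ran from 1 to 16 with each mouse left out, where 4.48% to 17.6% of all genes passed. Summed over strains, the 11 calls within strains became 19 with DESeq2 and 7 without the filter, and 5 to 13 with a mouse left out. The 5 calls of CAST/EiJ became 3 with any of its mice left out. The 6 of NOD/ShiLtJ became 3 without the filter, and 0 to 3 with a mouse left out. For differences among strains, the 1 call (2.5% of all genes) became 5 with DESeq2 (8.57%). It became 0 without the filter (1.42%), with all 48 libraries (3.02%), with the muscle covariate (0.829%) and without those 2 pairs (0.0801%). It ran from 0 to 4 with a mouse left out (0.0251% to 7.03%). The 6 calls against the other 7 strains became 10 with DESeq2 and 2 with the muscle covariate. Without those 2 pairs A/J had no pair, so its 3 calls could not recur. Of the 3 calls of CAST/EiJ, then set against the remaining strains without A/J, 1 was left. The 3 of CAST/EiJ became 1 with the muscle covariate and 0 to 2 with a mouse left out. In control limbs, 9 genes (40.6% of all genes) became 15 with DESeq2 (36%) and 7 to 20 with a library left out (31% to 55.6%). The 20 calls against the other strains became 33 with DESeq2, 13 without the filter and 14 to 33 with a library left out. RLE scaling moved none of these counts by over 1.5 times. Counts within strains and against the other strains are given here without the share of all genes in each setting. They thus cannot tell a change in these genes from a general one. The cause of these shifts was not tested.

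Without the replicate block, that is without pairing limbs by mouse, the mean of 8 strains again had 4 genes past the FDR. Of these, 1 was among the 4 with the block, and 5.57% of all genes passed. Differences among strains had 0, where 0.00592% of all genes passed. Comparisons with the other 7 strains had 2 in place of 6, given without the share of all genes. The Cytl1 mean turned to 0.014.

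Signs turned for 6 means near 0 and for 1 strain difference. With the muscle covariate, Chad was -0.10, Cytl1 0.27, Runx3 -0.030 and Gli1 0.091. Ptch1 was 9.04e-05 with all 48 libraries, and 0.11 without those 2 pairs, where Gli1 was 0.15. With each mouse left out, Chad ran from -0.16 to 0.22, Cytl1 from -0.37 to 0.31, Runx3 from -0.012 to 0.038, Ptch1 from -0.072 to 0.12, Gli1 from -0.26 to 0.095 and Sox5 from -0.035 to 0.37. Col9a1 in C57BL/6J controls ran from -0.035 to 3.87. Genes with few counts, such as Matn1, Epyc, Ucma and Mia, limit what this depth can show.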
